A study of Mus musculus with 5 samples.

Results

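NEUROD2 binding was examined at the genes of mitochondrial complex I and of the ATP synthase in embryonic mouse cortex. The members were the protein-coding genes on chromosomes 1 to 19 and X of GENCODE release M21 (mm10) whose symbol starts with Nduf or Atp5, and the rule found 64 of 21755 coding genes, 46 with an Nduf symbol and 18 with an Atp5 symbol. They carry 63 distinct symbols, because Atp5o is annotated at 2 overlapping loci. Chromatin came from the dissected cerebral cortex of BALB/c embryos at E14.5 (embryonic day), pooled from several mothers, and no other genotype, treatment or age was compared. It was precipitated with 3 antibodies against NEUROD2, of which ab1 came from mouse and the others, ab2 and ab3, from rabbit, or with GFP antibodies of either host as controls. Each antibody gave 1 library, so that the lists are 3 readings of 1 condition with no replicate of any antibody. Both ab2 and ab3 were called against the same GFP library. Whole cortex holds several cell types, and a peak list cannot tell in which of them the factor was bound. Since there is no contrast between groups, no test was made, and the main shares are given with 95% Wilson intervals, which cover counting error only.

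NEUROD2 is a neuronal transcription factor of the basic helix-loop-helix family, which binds DNA as a dimer at E-boxes and is known for its roles in the differentiation and wiring of cortical excitatory neurons. Complex I takes electrons from NADH, passes them along iron-sulphur clusters to ubiquinone and pumps protons across the inner mitochondrial membrane. The ATP synthase lets the protons flow back through a ring of c subunits, whose rotation drives ATP formation in the catalytic head. The genes described here are encoded in the nucleus, are used by nearly all cells, and their promoters are classically linked to the factors NRF1, GABP (an ETS factor), YY1 and SP1.

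The symbol rule does not follow the complexes exactly. By role, it took 7 catalytic core genes of complex I, 29 accessory subunits, 8 assembly factors (Ndufaf genes), Ndufa4 and its paralogue Ndufa4l2 (NDUFA4 is a subunit of complex IV), and on the side of the ATP synthase 5 genes of the F1 part (the catalytic head with its central stalk), 3 of the c ring, 5 of the peripheral stalk, 4 of the membrane part and Atp5s. On these chromosomes, the ab1 list counted 51834 peaks, that of ab2 35308 and that of ab3 7470, and the length of a list limits how many genes it can reach. A peak was counted at a promoter when its midpoint lay within 1 kb of the transcription start site (TSS) of the transcript with the longest span. Each peak carries a score, −10 times the log10 of its p-value, which was not scaled between libraries, so that scores were ranked only within an antibody. At member promoters lay 42 peaks from ab1, 31 from ab2 and 2 from ab3, out of 250, 166 and 29 respectively within 50 kb of a member.

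Overlapping peaks were merged, and the merged regions seen by at least 2 antibodies were searched on both strands for the extended E-box, the form that the study linked to NEUROD2. It is CANNTG with G or T in the third place, C or A in the fourth and a further G or T at the end, such as CAGCTGG or CATCTGT. Of the 28 member promoters with such a region, 5 held the motif in the central 200 bp (17.9%, 7.88 to 35.6), an interval that holds the 20.8% of 4101 coding promoter regions. Among the 5 were Ndufs8, Ndufaf3, Ndufb4 and Atp5h, the last from a region centred nearer to the TSS of Kctd2 than to its own. The sites of these 4 are shown as the matches found at bound member promoters, in mm10, 5′ to 3′ along the strand of the member, with the letters that match in capitals.
Ndufs8, chr19:3912727-3912755, − strand: cggttgaaccgCATCTGGgccagggaagg
Ndufaf3, chr9:108567478-108567506, − strand: taaggagaaaCCATCTGGccacaccccct
Ndufb4, chr16:37654364-37654392, − strand: ccgcgcaggcgCAGATGTgcgccgggagt
Atp5h, chr11:115420169-115420197, − strand: cactgccgggtCCAGCTGcagctccgcca
Each of these 4 windows held 1 site. The centre of the Ndufb5 region, which had peaks of all 3 antibodies, held none.

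Away from promoters, the 4 regions with the highest ab1 scores among those whose closest coding TSS is that of a member are shown. As regions, they carry the strongest signal that falls to a member. The letters are the 200 bp around the midpoint of each merged region, with the extended E-box in capitals. This midpoint need not be where the signal was highest, for instance in the Ndufa4l2 region of 5753 bp. The first region lies in an intron of the longer Atp5o locus and within Itsn1. The second lies within Tecr and nearest to the Ndufb7 TSS, and the last pair between coding genes upstream of Ndufa4l2 and Atp5g3.
Atp5o, chr16:91896465-91896664, − strand: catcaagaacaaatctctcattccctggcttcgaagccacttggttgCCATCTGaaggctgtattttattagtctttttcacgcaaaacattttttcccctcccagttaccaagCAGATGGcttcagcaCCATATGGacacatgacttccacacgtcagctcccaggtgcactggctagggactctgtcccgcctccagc
Ndufb7, chr8:83585126-83585325, + strand: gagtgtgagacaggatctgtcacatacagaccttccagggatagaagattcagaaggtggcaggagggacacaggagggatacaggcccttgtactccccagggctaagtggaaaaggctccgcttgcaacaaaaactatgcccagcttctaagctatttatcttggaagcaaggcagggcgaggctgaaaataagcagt
Ndufa4l2, chr10:127511135-127511334, + strand: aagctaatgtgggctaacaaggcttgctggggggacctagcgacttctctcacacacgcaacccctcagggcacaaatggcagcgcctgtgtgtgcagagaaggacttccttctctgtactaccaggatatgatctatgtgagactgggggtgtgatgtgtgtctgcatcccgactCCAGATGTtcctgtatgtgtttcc
Atp5g3, chr2:73932825-73933024, − strand: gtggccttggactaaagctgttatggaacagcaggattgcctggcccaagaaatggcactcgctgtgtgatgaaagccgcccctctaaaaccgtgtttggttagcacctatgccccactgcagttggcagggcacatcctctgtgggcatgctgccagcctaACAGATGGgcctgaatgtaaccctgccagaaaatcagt
The Atp5o window held 3 sites, those of Ndufa4l2 and Atp5g3 held 1 each, and that of Ndufb7 held 0.

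How often were the members bound at their promoters? With ab1, 41 of 64 had a promoter peak (64.1%, interval 51.8 to 74.7), against 35.6% of all coding genes. With ab2, 31 did (48.4%, 36.6 to 60.4), against 22.9%. With ab3 there were 2 of 64 (3.12%, 0.861 to 10.7), Ndufb5 being one of them, against 1.63%. Peaks of at least 2 antibodies stood at 28 promoters (43.8%, 32.3 to 55.9), where all coding genes gave 20.8%, and peaks of all 3 stood at the same 2 promoters (3.12%), against 1.54%. The intervals for ab1, for ab2 and for at least 2 antibodies lay above the level of all coding genes, and the interval for ab3 held it.

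**Figure D1:**
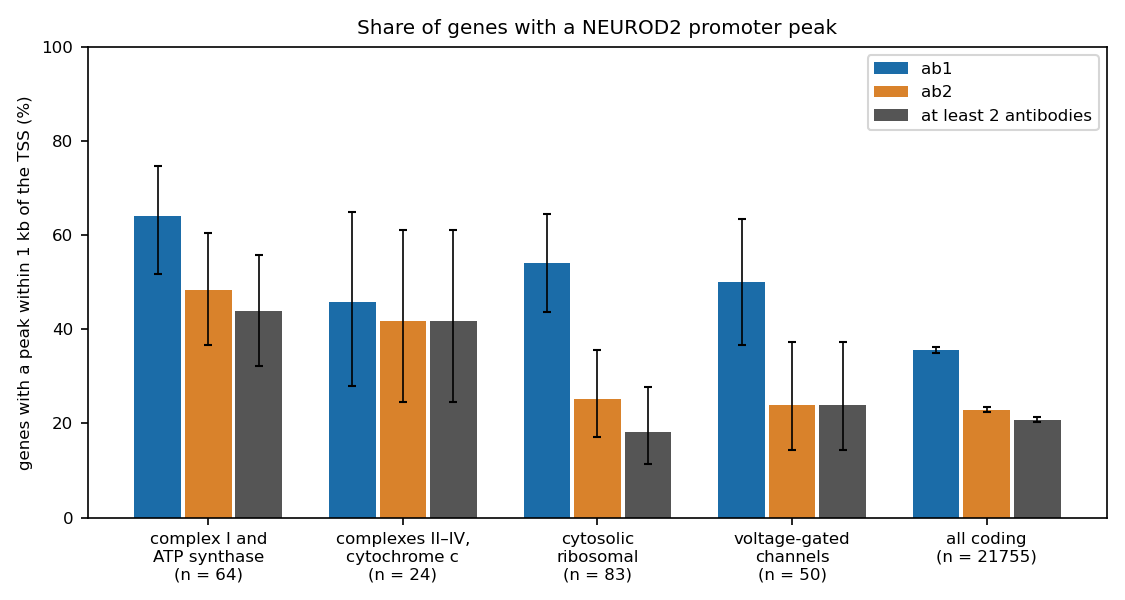
Percentage of genes with a NEUROD2 peak midpoint within 1 kb of the TSS (y axis), by gene list (x axis, with the number of genes), for ab1, ab2 and at least 2 antibodies; error bars are 95% Wilson intervals. The share with at least 2 antibodies was 43.8% for complex I and ATP synthase genes, 41.7% for complexes II to IV with cytochrome c, 18.1% for cytosolic ribosomal protein genes, 24% for voltage-gated channel genes and 20.8% for all coding genes.

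The count with at least 2 antibodies rests on ab1 and ab2 together. It was 2 without ab1, 2 without ab2 and 28 without ab3. It also rests on peaks of moderate score. With scores of at least 100, 17 members were left (26.6%, 17.3 to 38.5), against 11.9% of coding genes. When each list was cut to the 7470 highest scores, the length of the ab3 list, 2 members remained with at least 2 antibodies (3.12%, against 2.51%), and 2 remained with ab1 (3.12%, against 3.17%). Thus among the strongest peaks of ab1 the members' share was close to that of all coding genes.

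The promoters were also split by CpG content and by neighbouring genes. A promoter, taken from 250 bp before to 50 bp after the TSS, was called CpG-rich when its GC content was at least 55% and its ratio of observed to expected CpG at least 0.65, which held for 35 members (54.7%, 42.6 to 66.3) and for 36.7% of coding genes. Of all CpG-rich coding promoters, 37.0% had peaks of at least 2 antibodies, and 17 of the 35 CpG-rich members did (48.6%, 33.0 to 64.4), an interval that holds the level of all CpG-rich promoters. Of the 29 CpG-poor members, 11 did (37.9%, 22.7 to 56.0), above the 11.5% of CpG-poor coding promoters. The CpG-poor classes were unlike, with a median observed over expected CpG of 0.596 in the members and 0.29 in all coding genes, so that these shares are not matched for CpG content. In addition, 25 members (39.1%, 28.1 to 51.3) had the TSS of another coding gene within 1 kb, against 12.1% of coding genes. Of these 25, 10 were bound with at least 2 antibodies (40%, 23.4 to 59.3), and of the 39 others 18 were (46.2%, 31.6 to 61.4), while all coding genes gave 34.1% with such a neighbour and 19% without. The part of CpG content and of neighbouring promoters in the members' share was not tested.

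The members with peaks of both ab1 and ab2 also had higher ab1 scores. Among the 28 members called with both, the ab1 score had a median of 184.70 (lowest 54.28). Among the 13 called with ab1 alone it was 85.97 (54.35 to 321.69). The same medians were not taken over all coding genes, so that this is not shown to be particular to the members. The 3 members called with ab2 alone scored 56.13 (Ndufa2), 61.52 (Ndufa5) and 74.07 (Ndufb3), at percentiles 7.83, 13.4 and 25.7 of the ab2 promoter scores. Of the ab1 members 68.3% were also ab2 members, and of the ab2 members 90.3% were also ab1 members, where all coding genes gave 58.5% and 90.9%. Over the 28 genes the scores of the antibodies ranked alike (Spearman's rho 0.748 across genes, 0.691 over all coding genes with both) and the peak midpoints lay a median of 47 bp apart. Genes are not replicates. The study states that embryos of several mothers were used for each ChIP-Seq experiment, and elsewhere it counts each antibody as an experiment. It does not say outright that the antibodies had separate pools of tissue.

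**Figure D2:**
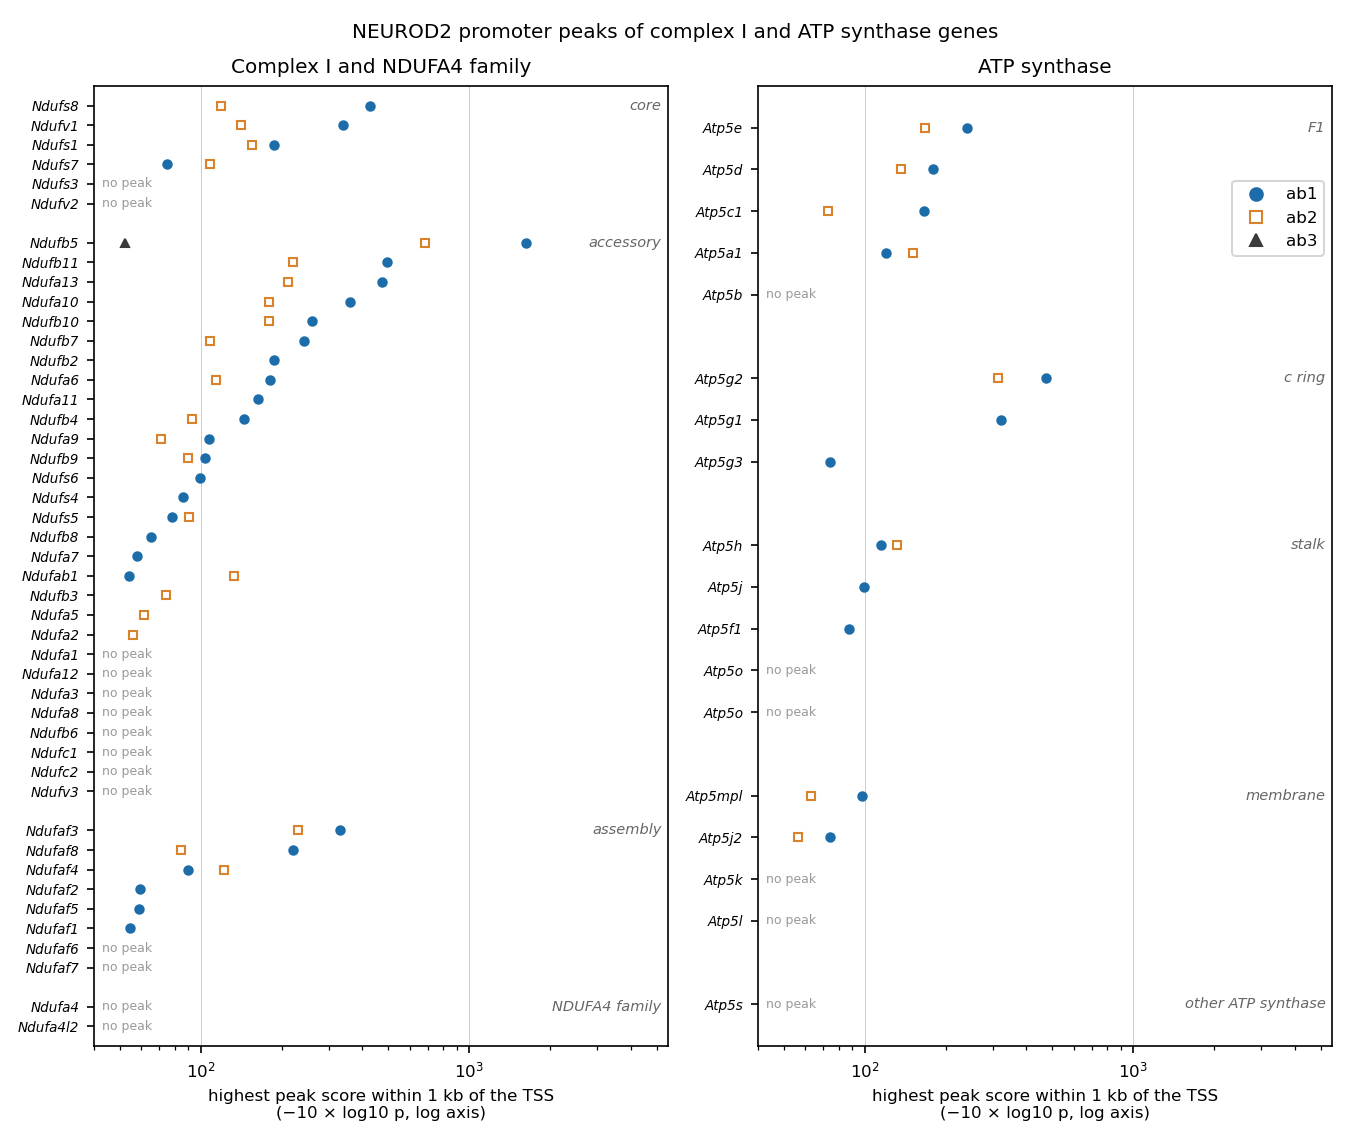
Highest score (x axis, −10 × log10 p, log scale) of the peaks of ab1, ab2 and ab3 within 1 kb of the TSS of 63 of the 64 genes (y axis), grouped by role; each point is 1 peak of 1 library and genes without a peak are marked. Ndufb5 stands apart at 1626.03 with ab1, above Ndufb11 at 492.39, and 20 genes had no promoter peak.

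Taken over the 41 members with an ab1 promoter peak, the median score was 145.38, against 150.15 over the 7738 coding genes with one, so that the members were bound often but not at unusual scores. For ab2 the medians were 122.16 for the members and 114.63 for all coding genes. The peaks lay close to the start sites. The ab1 midpoint was within 200 bp of the TSS in 29 of 41 members (70.7%, 55.5 to 82.4). This interval holds the 57.5% of coding promoter peaks. The median absolute distance of the ab1 midpoint was 108 bp, against 167 bp for all coding promoters. On or downstream of the TSS lay 27 of the 41 midpoints (65.9%, against 69.9% of all). The median peak width was 983 bp for the members and 1133 bp for all coding promoters. By position within the longest transcript of the member, the 28 region midpoints fell upstream of the TSS in 12, in coding sequence of an exon in 3, elsewhere in an exon in 9 and in an intron in 4.

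In complex I, 5 of the 7 catalytic core genes had promoter peaks of both ab1 and ab2. Ndufs8, an iron-sulphur subunit, had 427.88 with ab1 and 119.20 with ab2. Ndufv1, which binds NADH and the flavin, had 337.92 with ab1 and 141.76 with ab2. Ndufs1, the largest iron-sulphur subunit, had 187.56 with ab1 and 155.02 with ab2, from a region whose midpoint was 21 bp from the TSS of its divergent neighbour Eef1b2 and 24 bp from its own. Ndufs7, which carries the last cluster before ubiquinone, had 74.76 with ab1 and 108.22 with ab2, so that the order of these core genes differed between the antibodies. Ndufs3 and Ndufv2 had no promoter peak, and their nearest ab1 peaks lay 12838 bp and 10066 bp from the TSS.

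Among the 29 accessory subunits, which surround the core and stabilise it, 18 had an ab1 peak, 15 an ab2 peak and 12 both. Ndufb5, in the membrane arm, had 1626.03 with ab1, 685.95 with ab2 and 52.32 with ab3. It ranked 166, 205 and 326 among coding promoters, so that its ab3 peak was near the bottom of that list. Its region (chr3:32735964-32737778) was centred 119 bp upstream of the TSS, close to the start of the divergent Mrpl47, a gene for a mitochondrial ribosomal protein. Ndufb11 followed with 492.39 and 220.62, Ndufa13 with 471.78 and 211.51, and Ndufa10 with 358.40 and 178.81, ab1 before ab2 in each.

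Some accessory genes had a peak of 1 antibody alone or unlike scores. Ndufb2 (186.72) and Ndufa11 (163.44) had ab1 peaks and no ab2 peak. Ndufab1, the mitochondrial acyl carrier protein, had only 54.28 with ab1 but 133.27 with ab2. Ndufs4, whose loss is known to cause a severe neurological disease of infancy, had 85.97 with ab1 and no ab2 peak. Of the accessory genes, 8 had no promoter peak of any antibody. Ndufv3 and Ndufc1 among them missed the 1 kb window narrowly, since the nearest peaks lay 1015 bp (ab2) and 1029 bp (ab1) from the Ndufv3 TSS and 1320 bp and 1358 bp from that of Ndufc1. Just inside the window were Atp5f1, at 747 bp, and Atp5j2, at 536 bp.

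Of the 8 assembly factors, which help to build complex I and are not part of it, 6 had an ab1 peak and 3 both ab1 and ab2. Ndufaf3 had 329.12 with ab1 and 230.88 with ab2, Ndufaf8 had 219.85 and 84.67, and Ndufaf4 had 89.60 and 122.16. The 3 with ab1 alone, Ndufaf1, Ndufaf2 and Ndufaf5, scored between 54.35 and 59.19. Neither Ndufa4 nor Ndufa4l2 had a promoter peak by midpoint, although a region near Ndufa4l2 reached into the 1 kb window.

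In the ATP synthase, 4 of the 5 genes of the F1 part had peaks of both ab1 and ab2. Atp5e (epsilon subunit) had 239.84 and 167.27, Atp5d (delta) 179.10 and 136.14, Atp5c1 (gamma, the central shaft) 165.93 and 72.71, and Atp5a1 (alpha) 119.94 and 151.10, ab1 before ab2. The midpoint of the Atp5a1 region was nearer to the TSS of Haus1 (248 bp) than to its own (405 bp). Atp5b, which encodes the catalytic beta subunit and forms the head together with alpha, had no promoter peak, and its nearest ab1 peak lay 7884 bp away. The partner subunits alpha and beta therefore differed in the lists.

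The c ring is built from a subunit encoded by 3 genes whose mature proteins are the same. All 3 had an ab1 promoter peak, at 471.68 for Atp5g2, 321.69 for Atp5g1 and 74.10 for Atp5g3. Only Atp5g2 had an ab2 peak (312.91), and the nearest ab2 peaks to Atp5g1 and Atp5g3 lay 10526 bp and 14014 bp from the TSS. The genes for this 1 protein thus spanned percentiles 18.2 to 85.0 of the ab1 promoter scores.

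Both ab1 and ab2 peaks stood at 1 of the 5 peripheral stalk genes and 2 of the 4 membrane genes. In the peripheral stalk, Atp5h (115.16 with ab1 and 132.24 with ab2) had both. The midpoint of the Atp5h region was nearer to the TSS of Kctd2 (144 bp) than to its own (310 bp). Atp5f1 (87.36) and Atp5j (99.37) had ab1 alone, and the Atp5j peak is also that of Gabpa, which encodes a subunit of the ETS factor GABP and starts within 1 kb of Atp5j. Neither locus of Atp5o, which links head and stalk, had a promoter peak. In the membrane part, Atp5mpl (97.69 and 63.34) and Atp5j2 (74.43 and 56.62) had both, and Atp5k and Atp5l had none. Atp5s, whose product is related to a coupling factor, had none. With groups of 3 to 29 genes the intervals overlap widely, at least 2 antibodies giving 71.4% of the core (35.9 to 91.8), 41.4% of the accessory genes (25.5 to 59.3), 37.5% of the assembly factors (13.7 to 69.4), 80.0% of the F1 part (37.6 to 96.4), 33.3% of the c ring (6.15 to 79.2), 20% of the peripheral stalk (3.62 to 62.4) and 50% of the membrane part (15 to 85.0). All coding genes gave 20.8%, and neither the NDUFA4 pair nor Atp5s had such a promoter.

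Other parts of the respiratory chain were represented by a list of 24 genes of complexes II, III and IV and cytochrome c. Of these, 11 had an ab1 peak (45.8%, 27.9 to 64.9), an interval that holds the 35.6% of all coding genes. Peaks of at least 2 antibodies stood at 10 (41.7%, 24.5 to 61.2), an interval above the 20.8% of all coding genes. No promoter peak was found at 13 (54.2%, 35.1 to 72.1), against 20 of the 64 members (31.2%, 21.2 to 43.4) and 62.3% of all coding genes. The 10 were Sdhb and Sdhc of complex II, Uqcrfs1 and Uqcrh of complex III, Cox4i1, Cox5a, Cox5b, Cox7a2 and Cox8a of complex IV, and Cycs. Cox5a was the highest, at 889.86 with ab1 and 391.19 with ab2. Of 7 regulators of mitochondrial genes, 6 had an ab1 peak, 377.64 for Nrf1, 333.98 for Esrra, 230.62 for Tfam, 196.67 for Ppargc1b, 99.37 for Gabpa and 97.92 for Gabpb1. Esrra and Ppargc1b had ab2 peaks too (104.04 and 114.27), while Ppargc1a had none.

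Cytosolic ribosomal protein genes, another set used by nearly all cells, had an ab1 promoter peak in 45 of 83 (54.2%, 43.6 to 64.5), an ab2 peak in 21 (25.3%, 17.2 to 35.6) and at least 2 antibodies in 15 (18.1%, 11.3 to 27.7). The intervals for ab2 and for at least 2 antibodies lay below those of the members, and that for ab1 overlapped. Their median ab1 score was 81.92, against 145.38 for the members. Voltage-gated channel genes, typical of neurons, had at least 2 antibodies at 12 of 50 promoters (24%, 14.3 to 37.4), and this interval overlaps that of the members. The channels differed within the gene. A region of at least 2 antibodies lay in the gene body, more than 1 kb from the TSS, in 32 of 50 channel genes (64.0%, 50.1 to 75.9), in 6 of 64 members (9.38%, 4.37 to 19) and in 22.6% of coding genes. Member genes are also short, with a median span of 7780 bp against 94898 bp for the channels and 17414 bp for all coding genes, and the part of length in this difference was not tested.

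Within 50 kb of the gene span and outside the promoter window, 50 of the 64 members had a region of at least 2 antibodies (78.1%, 66.6 to 86.5), against 64.6% of coding genes and 78.2% of those with a CpG-rich promoter. This count was 18 without ab1, 18 without ab2 and 50 without ab3. With any peak of any antibody counted, 60 members were reached (93.8%, 85.0 to 97.5), against 79.4% and 95.8%. Atp5k, Ndufa4, Ndufa8 and Ndufb6 had no peak within 50 kb, and the nearest ab1 peak lay between 69935 bp (Ndufa8) and 160734 bp (Ndufa4) from the TSS. The 50 kb flank says little about which gene a region belongs to, because 88 of the 124 flank regions were closer to the TSS of another coding gene and 36 were closest to a member. Of the 124, 35 stood within 1 kb of another coding TSS.

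**Figure D3:**
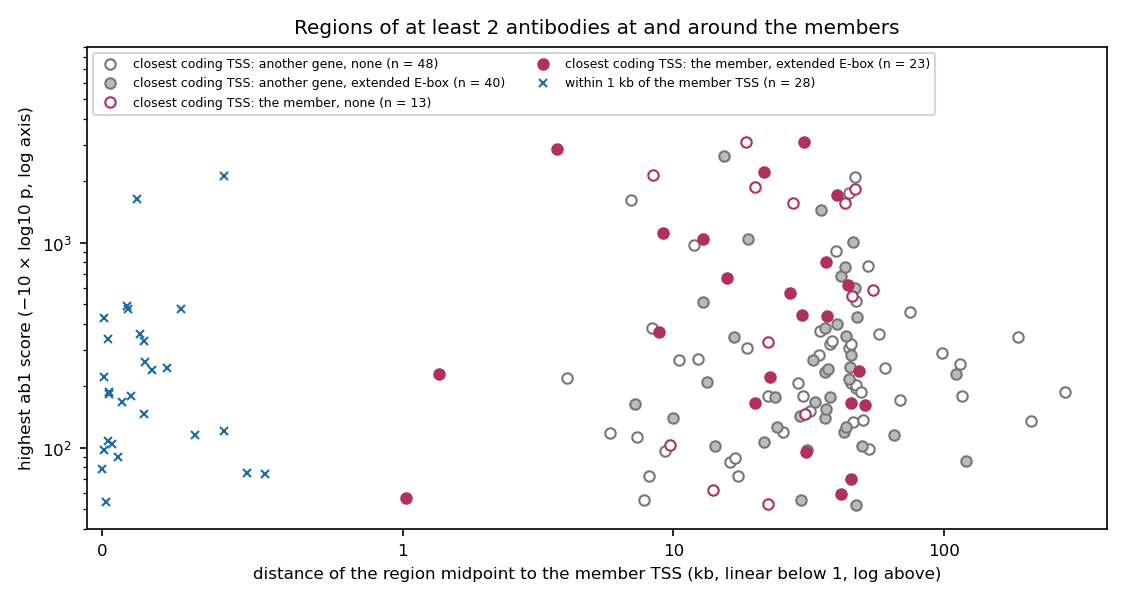
Highest ab1 score (y axis, −10 × log10 p, log scale) against the distance of the region midpoint to the TSS of the member (x axis, kb, linear below 1 and log above), for 28 promoter regions (crosses) and 124 flank regions (circles) with peaks of at least 2 antibodies. Red circles are the 36 regions closest to a member and grey circles the 88 closest to another coding gene, filled where the central 200 bp hold the extended E-box. Scores over 1000 were found in 2 promoter regions and 19 flank regions.

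The highest member scores lay in these flanks. The exact score 3100.00 recurred in 661 ab1 peaks, with 69 above it, and in 62 ab2 peaks, so that regions that carry it cannot be ranked against each other. Whether it is a limit of the peak caller was not tested. Near Atp5o, the region at chr16:91895759-91897371 had 3100.00 with ab1, 1049.59 with ab2 and 92.36 with ab3. It lies 30417 bp downstream of the start of the longer Atp5o locus, in intron 2, and also within Itsn1, a gene for a scaffold protein of endocytosis, and 9 regions stood inside this locus. The region nearest to Ndufb7 (chr8:83584654-83585799, 18555 bp downstream) had 3100.00, 2901.40 and 1540.03, in the order ab1, ab2 and ab3, and lies within Tecr, an enzyme gene of fatty acid elongation. It gave the highest ab3 score of the member regions, the next being 223.88 near Atp5g3, and its centre held no extended E-box.

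Ndufa4l2 had no peak midpoint within 1 kb of the TSS. A region of 5753 bp centred 3732 bp upstream of it (chr10:127508359-127514111) had 2873.04, 1771.20 and 80.19. This region ends less than 1 kb from the TSS, so that it counts as a flank region only by its midpoint. The nearest peak midpoints lay 2513 bp (ab1), 3473 bp (ab2) and 2121 bp (ab3) from the TSS. Atp5g3, whose promoter scored 74.10, had a region 21599 bp upstream (chr2:73932412-73933439) with 2218.64, 1148.24 and 223.88. A region 15348 bp upstream of Ndufb9 (chr15:58917961-58918856) had 2632.00, 1484.30 and 182.75, but its closest TSS is that of Tatdn1, in whose body it lies. Ndufs8 and Ndufv1 have 1 flank region in common, with 1001.06, 572.97 and 70.21, but its closest TSS is that of Aldh3b3, 133 bp from its centre, whereas the members start 46004 and 53916 bp away. Among the 36 regions closest to a member, 16 had peaks of all 3 antibodies (44.4%, 29.5 to 60.4), against 22.1% of all flank regions of coding genes, 20.2% of the members' 124 flank regions and 7.14% of their 28 promoter regions. Several of the 36 lie at 1 locus, as near Atp5o and Ndufb9, so that they are not independent.

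Promoter and flank regions differed in their E-boxes. At member promoters the extended E-box stood in 5 of 28 central windows (17.9%, 7.88 to 35.6), against 14.3% and 21.4% in windows that start 1000 bp beyond either end of the region, and in 20.8% of 4101 promoter regions of all coding genes. In the flanks it stood in 63 of 124 (50.8%, 42.1 to 59.4), against 31.5% and 30.6% beyond the ends, and in 59.0% of all coding flank regions. Within the flanks, the 35 regions at the TSS of another coding gene had it in 17.1% (8.10 to 32.7), and the 89 farther from every coding TSS in 64.0% (53.7 to 73.2). Thus the share was low at start sites, whether those of members or of their neighbours, and high away from them. The median GC content of the central window was 63.8% at member promoters and 53.5% in the 89 regions, and the part of base composition in this difference was not tested.

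**Figure D4:**
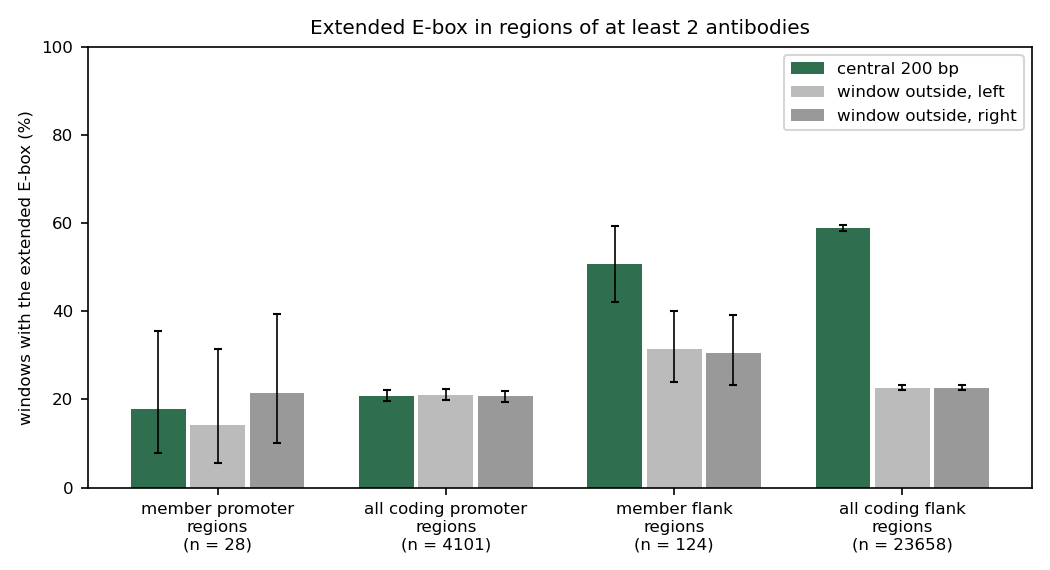
Percentage of windows of 200 bp that hold the extended E-box (y axis), in the centre of regions of at least 2 antibodies and in windows 1000 bp beyond their left and right ends, for the regions on the x axis; error bars are 95% Wilson intervals. The centre stands above its outer windows in the flank regions (50.8% against 31.5% and 30.6% for members) and not in the promoter regions (17.9% against 14.3% and 21.4%).

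Other motifs were counted as exact letters on both strands in the same 28 central windows. AAGATGGCG, the core of the YY1 site, stood in 6 (21.4%, 10.2 to 39.5), against 2.95% of 4101 coding promoter regions and 1.61% of the members' flank regions. CCGGAAG, an ETS core, stood in 14.3% (9.83% of all), GGGCGG, an SP core, in 17.9% (53.8% of all), and CGCATGCG, the NRF1 core, in 0 of 28 (1.17% of all). CCAAT stood in 21.4% (20.2% of all). For 5 of the 6 windows the YY1 letters are shown in capitals, along the strand of the member, because, of the motifs counted, this one differed most from all promoter regions in the upward direction. The sixth window, that of Atp5a1, is not shown and is not part of the statements on strand, distance and start codon.
Atp5e, chr2:174463866-174463894, − strand: gccaccctccAAGATGGCGtcgccgtgga
Atp5j2, chr5:145191500-145191528, − strand: ccaggacttcAAGATGGCGtcactcggtg
Ndufa6, chr15:82354213-82354241, − strand: cttcctcggcAAGATGGCGgccgcggcca
Ndufa9, chr6:126849097-126849125, − strand: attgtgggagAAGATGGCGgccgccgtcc
Ndufaf8, chr11:120098934-120098962, + strand: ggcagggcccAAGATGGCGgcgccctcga
In these 5 genes the letters read in the direction of the transcript, centred 14 to 548 bp downstream of the TSS. The letters AGATGG are common to this motif and to CAGATGG, a form of the extended E-box, but a full match to either is not a match to the other at the same place. None of these 5 was among the promoter windows with the extended E-box. The letters contain ATG, and in 3 of the 5, Atp5j2, Ndufa6 and Ndufa9, it is the annotated start codon of the member, so that the motif and the start of the protein are the same letters there.

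Over all 64 promoters from 250 bp before to 50 bp after the TSS, bound or not, the NRF1 core stood in 6 (9.38%, 4.37 to 19), against 2.29% of coding promoters. These were Atp5g2, Atp5k, Atp5l, Ndufa11, Ndufaf4 and Ndufaf5, of which Atp5g2 and Ndufaf4 had peaks of at least 2 antibodies and Atp5k and Atp5l had none. The YY1 core stood in 6.25% (1.88% of all), the ETS core in 17.2% (11.3%) and the extended E-box in 21.9% (23.2%). A match is a description of the letters and not of a bound factor. The reference genome is not that of BALB/c mice, so that a motif gained or lost by a variant between the strains would be missed.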

How the data were processed

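Peak lists of the 3 NEUROD2 libraries were used. The authors mapped reads to mm10 with Bowtie, removed duplicates and reads with several positions, and called peaks per library with MACS against a GFP library of the same host species. The deposited score of a peak is −10 times log10 of its p-value. Reads, depth per library and the GFP libraries were not analysed here.

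From the lists, midpoints were placed on the longest-span transcripts of GENCODE M21, peaks overlapping by at least 1 bp were merged, and shares were counted with 95% Wilson intervals, over all 21755 coding genes with Python 3.11.15 (pysam 0.24.0, pandas 2.3.3, numpy 2.4.6, scipy 1.17.1, matplotlib 3.10.9). Motifs were read from the RefSeq copy of GRCm38, which is mm10. The counting was tested on simulated data. Members, gene lists and comparisons were chosen with earlier results of these data known. Named genes were those with all 3 antibodies, the 10 highest ab1 scores at promoters and the 5 in flanks, the catalytic core, the c subunit, genes with no peak within 50 kb and those nearest to the 1 kb limit. Genes named beyond this, to fill out each role group, were chosen after their values were seen. The alternatives changed the score minimum, window, TSS, list length, flank, motif and antibodies. The values of 1 member are not reported here.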

Additional observations from a re-analysis of the deposited data

How the results depend on the processing

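Of 57 alternative values, 33 stayed within 1.5 times the count or within the interval of the value reported. The promoter counts changed little with windows of 500 and 2000 bp, all annotated TSSs or any overlap. When a peak counted only for the closest coding TSS, ab1 members fell from 41 to 31 and those with at least 2 antibodies from 28 to 23. With scores of at least 100, promoter peaks were left at 25 members for ab1, 20 for ab2, 1 for ab3 and 17 for at least 2 antibodies. In this order the shares were 39.1%, 31.2%, 1.56% and 26.6%, against 24.2%, 13.1%, 0.510% and 11.9% of coding genes. With equal list lengths the counts were 2 for ab1, 2 for ab2 and 2 for at least 2 antibodies. Leaving out 1 antibody gave 2 to 28 members with at least 2 antibodies at the promoter, 18 to 50 with a flank region, 0 to 50% of promoter regions with the extended E-box (0 or 1 of 2 regions at the extremes) and 50.8 to 68.0% of flank regions. Members with a flank region numbered 18 with all 3 antibodies, 20 within 10 kb and 17 when the member's TSS had to be the closest. Among alternatives for gene counts, shares over all coding genes were made only for the score minimum, equal list lengths and all annotated TSSs. The other alternative counts, such as those for the closest TSS and the flanks, have no such share beside them. The E-box share of promoter regions was 50% with all 3 antibodies (1 of 2), against 39.0% of such coding promoter regions. For any E-box it was 35.7% (20.7 to 54.2), with 53.6% and 64.3% beyond the ends. All coding promoter regions gave 50.9% for any E-box, with 66.1% and 65.9% beyond the ends. Over 400 bp the members' promoter share was 35.7%, against 36.8%. The share of flank regions was 63.9% for those closest to a member. It was 78.2% for any E-box (83.3% of all coding flank regions) and 71.0% over 400 bp (75.0%). No paired analysis was possible because the GFP libraries entered through the authors' peak calling alone and have no values here. With 1 library per antibody, the spread between animals is unknown.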
